A study of Mus musculus with 2 samples.

Results

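Interferon-high splenic B cells were taken from the spleens of virus-infected mice by a rule on UMIs, the unique molecular identifiers that stand for captured transcripts in single cell RNA sequencing. A barcode, the tag of 1 droplet, was a member if it held at least 1 UMI of Cd79a, a signaling chain of the B cell receptor, and at least 3 UMIs in all of Ifit1, Ifit2 and Ifit3. It also had to hold fewer than 5 UMIs of Mzb1, which is abundant in plasma cells, and none of the T cell gene Cd3e or the myeloid gene Lyz2. The rule found 439 of 23397 barcodes, of which PEP-WT gave 360 and PEP-619WW gave 79. Members were therefore chosen by measured values, and their Ifit, Cd79a, Mzb1, Cd3e and Lyz2 levels are descriptions and not findings. Barcodes that met the other conditions with an Ifit sum of 0 to 2 are called Ifit-low, and there were 7254 of them, 5057 in PEP-WT and 2197 in PEP-619WW.

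Interferons of type I are cytokines released by virus-infected and sensing cells, and nearly all cells carry their receptor. The receptor activates transcription factors, among them STAT2 and IRF9, that bind the interferon-stimulated response element (ISRE) in front of interferon-stimulated genes. The Ifit proteins are products of such genes that bind viral RNA, and B cells in the spleen of an infected animal can take up the same program.

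Both groups were C57BL/6 mice infected intravenously with LCMV-cl13, a lymphocytic choriomeningitis virus isolate that causes lasting infection, and their spleens were taken at day 8. PEP-WT mice carried the wild-type gene Ptpn22, whose product PEP is a tyrosine phosphatase of immune cells. PEP-619WW mice were homozygous for a CRISPR/Cas9 knock-in of the mouse counterpart of the human autoimmunity-associated variant, in every cell of the body. Animals were matched for age and sex, and spleen cells from 4 to 5 animals of each genotype were combined and sorted as live CD45+ cells before a single 10x Genomics 3' library was made per genotype. No uninfected library was analysed here, so every value below comes from infected mice.

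The labels name liver, a human T cell line and tumor-infiltrating cells, whereas their protocol text and the study describe splenocytes. The barcodes used here carried B cell genes as the rule requires. Each genotype gives 1 library, so genotype and library cannot be told apart, no test between genotypes is possible, and cells are not replicates. All intervals below are 95% intervals that cover counting error only. PEP-WT held 14821 barcodes with a median of 2832 UMIs, and PEP-619WW held 8576 with a median of 3293. A second pair of matrices was deposited, with 2 gated B cells in PEP-WT and 519 in PEP-619WW, and was too poor in B cells for gene comparisons. Its barcodes numbered 9539 for PEP-WT and 11029 for PEP-619WW. The cell numbers in the study's methods are those of the second pair and not of the pair described here. That the first pair came from the animals and sort of the methods is assumed from the shared labels and was not tested. The first pair held 5417 gated B cells in PEP-WT and 2276 in PEP-619WW, and why the pairs differ was not tested. The 2 libraries shared 39 barcode sequences, which 2 interferon-high PEP-WT barcodes and 0 interferon-high PEP-619WW barcodes carried.

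The 3 Ifit genes of the rule lie together on mouse chromosome 19, and the promoters of Ifit1 and Ifit3 hold the element that gives the program its name. The sequences below are from RefSeq on GRCm38.p6, run 5′ to 3′ on the gene's own strand from 250 bases before to 50 bases after the annotated start, and have in capitals the ISRE core GAAA-NN-GAAA or its reverse complement TTTC-NN-TTTC, N being any base. Ifit1 and Ifit3 are shown as the genes that chose the members. Isg15, Rsad2 and Oas3 are shown as 3 genes that the rule did not use and that stood higher in the members of both libraries.
Ifit1 (chr19:34640639-34640938, plus strand): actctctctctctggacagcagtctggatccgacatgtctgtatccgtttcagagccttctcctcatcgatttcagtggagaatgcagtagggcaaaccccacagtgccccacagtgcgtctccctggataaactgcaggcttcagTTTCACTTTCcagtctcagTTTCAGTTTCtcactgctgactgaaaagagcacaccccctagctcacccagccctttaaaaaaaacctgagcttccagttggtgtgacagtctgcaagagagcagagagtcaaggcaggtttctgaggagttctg
Ifit3 (chr19:34583279-34583578, plus strand): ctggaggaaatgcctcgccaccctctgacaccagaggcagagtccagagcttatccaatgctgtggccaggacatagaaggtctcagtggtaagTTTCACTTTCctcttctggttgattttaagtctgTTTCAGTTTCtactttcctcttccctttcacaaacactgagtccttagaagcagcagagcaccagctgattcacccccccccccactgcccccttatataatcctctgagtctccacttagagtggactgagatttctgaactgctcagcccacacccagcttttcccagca
Isg15 (chr4:156200769-156201068, minus strand): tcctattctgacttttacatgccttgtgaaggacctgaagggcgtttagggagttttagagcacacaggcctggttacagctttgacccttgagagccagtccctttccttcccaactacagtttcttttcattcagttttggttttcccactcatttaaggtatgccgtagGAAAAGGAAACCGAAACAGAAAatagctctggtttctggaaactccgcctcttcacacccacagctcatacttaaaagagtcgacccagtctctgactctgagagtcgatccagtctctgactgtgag
Rsad2 (chr12:26456403-26456702, minus strand): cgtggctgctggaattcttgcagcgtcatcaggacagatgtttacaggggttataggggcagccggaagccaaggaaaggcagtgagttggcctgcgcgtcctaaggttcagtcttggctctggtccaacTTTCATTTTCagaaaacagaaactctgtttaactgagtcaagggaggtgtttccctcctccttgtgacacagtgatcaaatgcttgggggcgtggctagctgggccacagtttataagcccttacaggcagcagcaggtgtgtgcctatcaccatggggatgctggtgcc
Oas3 (chr5:120777610-120777909, minus strand): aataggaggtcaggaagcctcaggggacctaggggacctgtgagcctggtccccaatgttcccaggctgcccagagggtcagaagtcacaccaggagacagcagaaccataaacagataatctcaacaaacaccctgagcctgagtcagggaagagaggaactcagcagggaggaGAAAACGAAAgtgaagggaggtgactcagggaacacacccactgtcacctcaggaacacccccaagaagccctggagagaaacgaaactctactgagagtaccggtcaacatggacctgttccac

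Ifit1 and Ifit3 each held 2 matches to the core, Isg15 held 3 that overlap each other, and Rsad2 and Oas3 held 1 each. Ifit2 had 0 matches in the windows of its annotated starts. Searched on both strands, the core was present for 31 of the 65 interferon-stimulated list genes with an entry (47.7%) and for 1079 of all 27025 genes of the promoter table (3.99%). It was present for 8 of 19 list genes that stood at least 2-fold higher in the members (42.1%) and for 17 of 33 that were measured and did not (51.5%). The shorter element TTCNNNGAA, known from genes that respond to interferon gamma, was present for 11 of 65 list genes (16.9%) against 9.55% of all genes. A match describes letters in a window and does not show that a factor binds there.

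Within the members, Ifit3 gave most of the Ifit UMIs that were counted. It held 58.0% of them in PEP-WT and 58.9% in PEP-619WW, and 94.4% and 94.9% of the members carried it. Ifit1 was seen in 50.8% and 46.8% of the members and Ifit2 in 60.6% and 72.2%. All 3 genes were seen together in 28.3% of PEP-WT and 31.6% of PEP-619WW members. The median Ifit sum was 4 in both libraries, and the highest was 22 in PEP-WT and 18 in PEP-619WW. Ifit3b is a near copy of Ifit3, and UMIs could be split between them, so the level of either is uncertain. Most members therefore lay near the threshold of 3 and rested on a few UMIs of 1 or 2 of the genes.

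Interferon-high barcodes were a smaller share of the gated B cells in PEP-619WW. They were 360 of 5417 gated barcodes in PEP-WT, or 6.65% (exact binomial interval 5.997 to 7.34), and 79 of 2276 in PEP-619WW, or 3.47% (2.76 to 4.31). The difference, PEP-619WW minus PEP-WT, was −3.17 points (Newcombe interval −4.14 to −2.13). Of all barcodes, they were 2.43% in PEP-WT and 0.921% in PEP-619WW. The members were deeper than the Ifit-low barcodes, with a median of 2889 against 2237 UMIs in PEP-WT and 3618 against 2770 in PEP-619WW, and deeper barcodes pass a threshold of 3 UMIs more easily. PEP-619WW had the deeper barcodes and the smaller share, and the cause of the difference between the libraries was not tested. The difference was −5.05 points at a threshold of 2 UMIs, where the shares were 12.8% in PEP-WT and 7.78% in PEP-619WW. It was −1.06 at 5, and −0.951 when every barcode was first thinned to 1000 UMIs. The shares themselves change with the threshold and with depth, so sizes in points cannot be compared directly between these settings. In the second pair of matrices the difference was 0.771 points, from 0 of 2 and 4 of 519 barcodes, too few in PEP-WT to give a sign.

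After each barcode was thinned to 1000 UMIs, 17.7% of gated PEP-WT and 10.3% of gated PEP-619WW B cells kept at least 1 Ifit UMI. The same share was 20.2% and 10.4% in T cells, 48.8% and 26.4% in myeloid cells and 8.70% and 5.40% in plasma cells. Erythroid barcodes gave 9.31% (interval 6.68 to 12.6, 408 barcodes) and 7.69% (1.62 to 20.9, 39 barcodes). They were set beside the B cells as a rough and uncertain guide to the background of free RNA. They held Isg15 at 1866 and 961 UMIs in 1000000, the most of any class here. They were also chosen without Cd79a, Cd3e or Lyz2 UMIs. Whether they made Ifit transcripts themselves was not tested. Their median depth before thinning was 1842 UMIs in PEP-WT and 2609.5 in PEP-619WW, against 2261 and 2792 in gated B cells. The B cell share lay above the erythroid interval in PEP-WT and inside it in PEP-619WW, which cannot separate B cell transcripts from free RNA. Unthinned, an Ifit sum of at least 3 was reached by 2.86% of PEP-WT and 4.76% (2 of 42) of PEP-619WW erythroid barcodes. The PEP-619WW interval rests on 39 erythroid barcodes and is wide. The 870 thinned plasma cell barcodes of that library had an interval of 4.00 to 7.12%, below the B cell interval of 9.03 to 11.7%. Before thinning, plasma cell barcodes were deeper than those of B cells, with medians of 8390.5 (PEP-WT) and 11433.5 (PEP-619WW). Summed over all UMIs, the Ifit genes were at 142 UMIs in 1000000 in PEP-619WW B cells, 45.2 in erythroid barcodes and 37.0 in plasma cells, and at 238, 113 and 71.3 in PEP-WT. A fixed amount of free RNA is a smaller part of deeper barcodes, so these plasma cell values cannot separate it from B cell transcripts. The part of free RNA in the B cell Ifit levels was not tested.

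The other genes of the program give a readout that the rule did not use. A list of 85 interferon-stimulated genes, without the Ifit genes, had 83 members in the files, Mx1 and Mx2 not being among them. Levels below are CPM, the UMIs of a gene summed over the barcodes of a group and scaled to a sum of 1000000 UMIs. The list's summed level increased with the Ifit sum on both sides of the threshold. In PEP-WT it was 14524 CPM at an Ifit sum of 0, 17036 at 1 and 18976 at 2, just outside the threshold, and 19803 at 3, just inside it. It was then 24059 at 4, 25827 at 5 to 9 and 32602 in the 30 barcodes with 10 to 22. In PEP-619WW the steps were 11684, 13411 and 17511 outside, and 21853 at 3, 19103 at 4, 25442 at 5 to 9 and 37518 in the 12 barcodes with 10 to 18. The step at 4 in PEP-619WW held 12 barcodes and lay below its neighbor. In PEP-WT the neutrophil gene S100a8 moved with these steps, from 43.3 CPM at a sum of 0 and 71.4 at 3 to 605 at 4, 521 at 5 to 9 and 941 at 10 to 22, while Cd79b went from 1689 at 0 to 851 at 10 to 22. In PEP-619WW S100a8 was at 194 at a sum of 0 and 38.6 at 10 to 18, and Cd79b at 1704 and 1834. The part of these transcripts in the list's level was not tested by step. The threshold thus cut a continuous range, and 335 PEP-WT and 98 PEP-619WW barcodes lay just outside it at a sum of 2, beside 133 and 29 just inside it at 3.

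**Figure D1:**
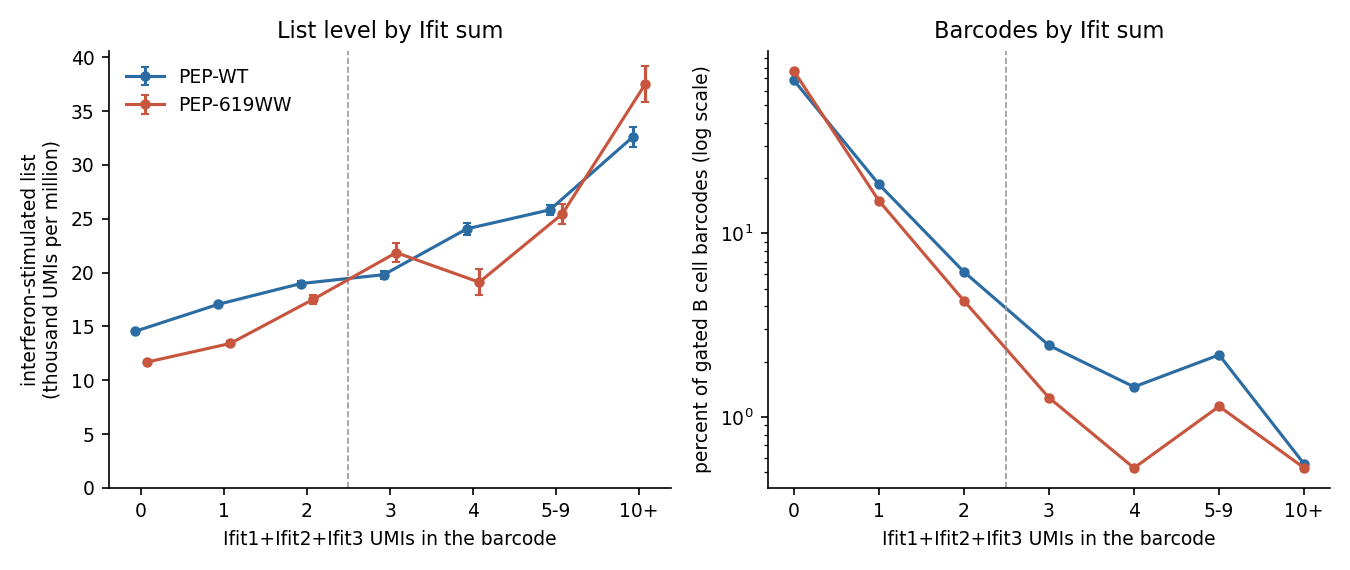
Left, summed level of the interferon-stimulated list (CPM, axis in units of 1000, bars for 95% Poisson intervals) by the Ifit sum of the barcode, for PEP-WT and PEP-619WW. Right, percent of gated B cell barcodes at each Ifit sum (log scale). The dashed line is the threshold of 3, and the list level lay at 14524 in PEP-WT and 11684 in PEP-619WW at a sum of 0.

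Single barcodes showed the same order with wide overlap. The list made up a median of 260.9 UMIs per 10000 in interferon-high PEP-WT barcodes, with a range of 75.4 to 709, against a median of 152.7 in Ifit-low ones. In PEP-619WW the median was 250, with a range of 74.2 to 516, against 115.7 in Ifit-low barcodes. Of the members, 204 of 360 in PEP-WT (56.7%) and 62 of 79 in PEP-619WW (78.5%) lay above the 90th percentile of the Ifit-low barcodes of their own library. At or below the Ifit-low median lay 39 of 360 (10.8%) and 4 of 79 (5.06%). The members of the libraries thus had close medians, while the Ifit-low medians were further apart.

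**Figure D2:**
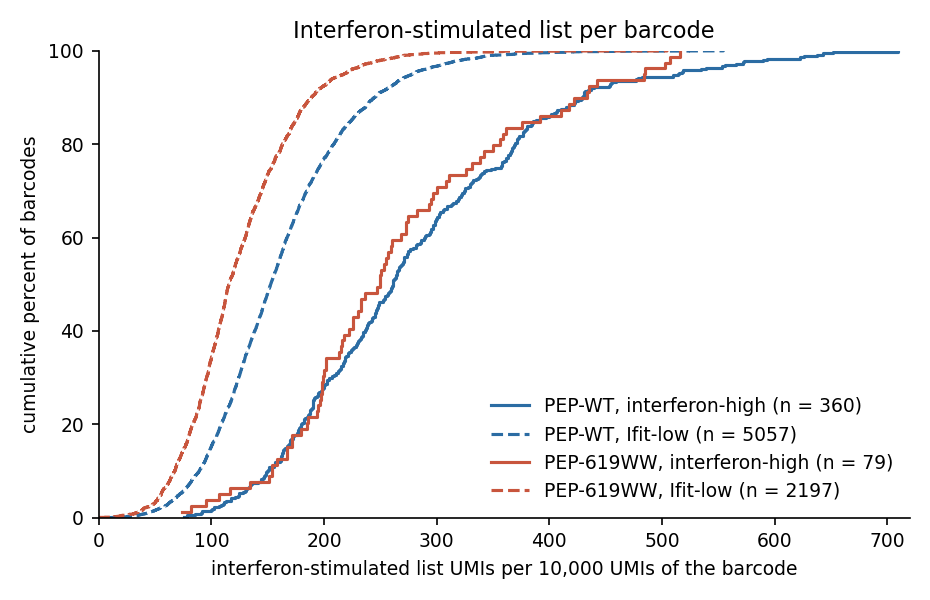
Cumulative percent of barcodes by interferon-stimulated list UMIs per 10000 UMIs of the barcode, for interferon-high and Ifit-low barcodes of PEP-WT and PEP-619WW. The curves of the interferon-high barcodes lie to the right with medians of 260.9 (PEP-WT) and 250 (PEP-619WW), and all curves overlap.

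Across genes, 34 of 2366 measured genes (1.44%) were at least 2-fold higher in interferon-high than in Ifit-low barcodes of both libraries, and 1 (0.0423%) was at most 0.5-fold. A gene was measured if the mean of its levels in both sets reached 50 CPM in each library. The 34 genes were the 3 Ifit genes of the rule with their relatives Ifit1bl1 and Ifit3b, 23 of the 67 measured genes of the interferon-stimulated list, and 6 others. The list's median log2 ratio was 0.85 in PEP-WT and 1.33 in PEP-619WW, where the median of all measured genes was 0.00 and −0.03. No list gene was called lower. At a threshold of 2 Ifit UMIs 18 genes were called higher, and 100 when barcodes were thinned to 1000 UMIs before the gate. Since the same barcodes were chosen by 3 genes of this program, these counts describe the members and test nothing. Of the 34 genes, 24 lay under 50 CPM in the Ifit-low barcodes of at least 1 library.

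**Figure D3:**
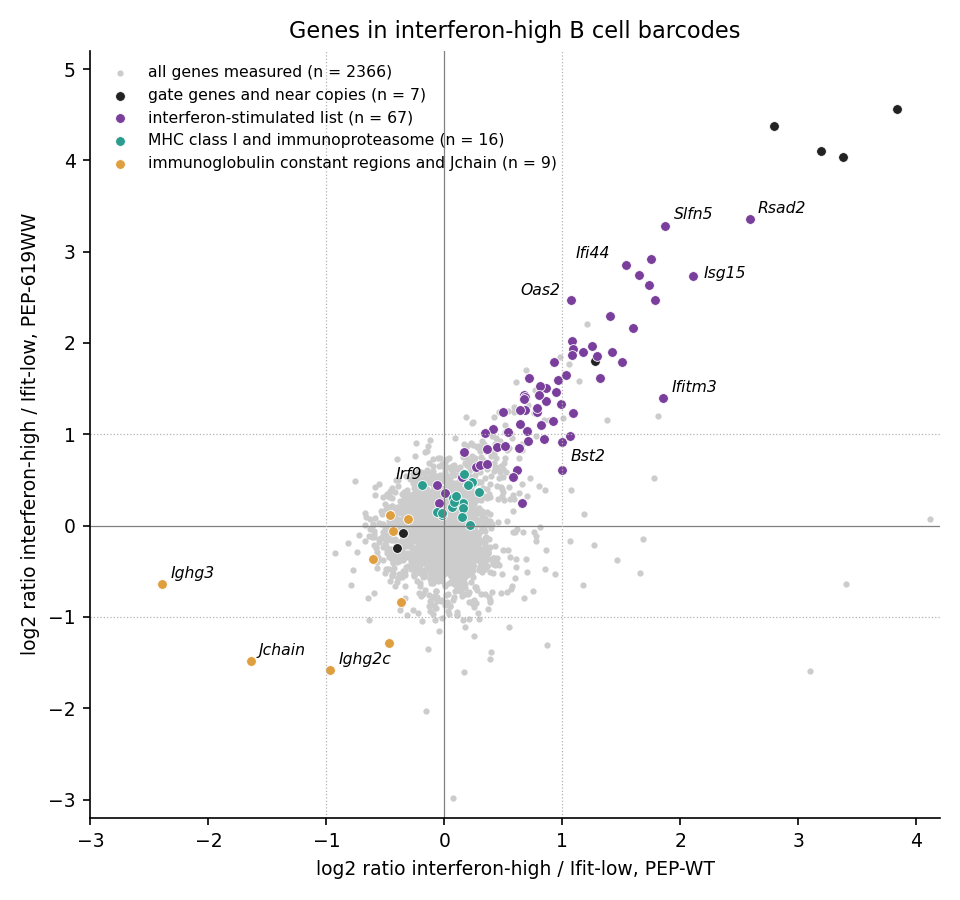
Log2 ratio of interferon-high over Ifit-low barcodes for each measured gene, PEP-WT on the x axis and PEP-619WW on the y axis, with the genes of the rule, the interferon-stimulated list and other lists in color. The interferon-stimulated list lies to the upper right of the other genes, with medians of 0.85 and 1.33, and 3 genes fall outside the axes. Dotted lines mark 2-fold.

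Of 8 sensors of foreign nucleic acid, 4 reached the filter and 1 was called, against 1.44% of all measured genes. Eif2ak2, the kinase PKR that halts translation on binding double-stranded RNA, was at 148 CPM in interferon-high and 55.3 in Ifit-low PEP-WT barcodes, and at 133 and 35.7 in PEP-619WW. Its log2 ratio was 1.42 (1.19 to 1.64) in PEP-WT and 1.90 (1.39 to 2.38) in PEP-619WW. Under 50 CPM in Ifit-low PEP-619WW barcodes, Eif2ak2 passed the filter there through the members. Ddx58, which encodes the RNA sensor RIG-I, was at 150 and 79.0 in PEP-WT and at 159 and 71.6 in PEP-619WW, below 2-fold in PEP-WT. Zbp1, a sensor of nucleic acid in the Z form, was at 496 and 284 in PEP-WT and at 521 and 193 in PEP-619WW. Tlr7, the endosomal receptor for single-stranded RNA, was at 62.4 and 44.3, and at 88.9 and 37.45.

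The products of the OAS genes sense double-stranded RNA and make a nucleotide second messenger. Of 7 genes of the OAS and RNase L list, 4 reached the filter and all 4 were called, against 1.44% of all measured genes. Oas3 was at 133 CPM in the members of both libraries, against 39.5 in Ifit-low PEP-WT and 17.7 in Ifit-low PEP-619WW barcodes. Under 50 CPM in both Ifit-low sets, Oas3 passed the filter only through the members. Its log2 ratio was 1.75 (1.51 to 1.99) and 2.92 (2.37 to 3.43). Oas2, Oasl1 and Oasl2 had log2 ratios of 1.07, 1.40 and 1.30 in PEP-WT, and of 2.48, 2.30 and 1.85 in PEP-619WW. No gene of this list was above 133.4 CPM in PEP-619WW members, so all 4 lay under 50 CPM in Ifit-low PEP-619WW barcodes. They passed the filter there through the members, so their count of calls was partly set by the filter.

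Genes of the ISG15 pathway, which attaches the ubiquitin-like protein ISG15 to other proteins, were called in 3 of 5 measured, against 1.44% of all genes. Isg15 was at 741 CPM in interferon-high and 171 in Ifit-low PEP-WT barcodes, a log2 ratio of 2.11 (2.00 to 2.22). In PEP-619WW it was at 343 and 51.4, a log2 ratio of 2.74 (2.41 to 3.05). Erythroid barcodes of PEP-WT held Isg15 at 1866 CPM and those of PEP-619WW at 961, and the part of free Isg15 RNA in the B cell levels was not tested. Thinned to 1000 UMIs, 42.1% of interferon-high and 10.6% of Ifit-low PEP-WT barcodes kept an Isg15 UMI, against 64.2% and 22.6% unthinned. In PEP-619WW the shares were 24.1% and 3.62% thinned, and 50.6% and 9.51% unthinned. Herc6, the ligase that transfers ISG15 in mice, had log2 ratios of 1.65 (1.44 to 1.86) and 2.74 (2.31 to 3.15). Usp18, which removes ISG15 and damps signaling from the type I receptor, had 1.73 (1.48 to 1.98) and 2.63 (2.09 to 3.15). Usp18 lay under 50 CPM in the Ifit-low barcodes of both libraries and passed the filter through the members.

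Among the factors that carry the interferon signal, Irf7 was called. Irf7, which drives the second wave of interferon transcription, was at 346 and 169 CPM in PEP-WT, and at 283 and 89.9 in PEP-619WW. Stat2 had log2 ratios of 0.78 and 1.29, and Irf9 of −0.06 and 0.45, and neither was called. The receptor chains Ifnar1 and Ifnar2 lay under the filter at 33.3 and 44.4 CPM in PEP-WT members. Socs1, an inhibitor of JAK kinases that interferon itself induces, had log2 ratios of 0.59 (0.40 to 0.77) and 1.25 (0.84 to 1.63) and was not called. Of 7 interferon genes looked for, Ifna1, Ifna2, Ifna4, Ifnb1, Ifnl2 and Ifnl3 held 0 UMIs in the members, and Ifng held 3 in PEP-WT and 1 in PEP-619WW. A count of 0 in the 1442065 and 314900 UMIs of the members allows up to 3 UMIs.

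Of 34 measured antiviral effectors, 13 were called, out of 23 calls on the interferon-stimulated list and against 1.44% of all measured genes. Rsad2, which encodes viperin, an enzyme that makes a chain-terminating nucleotide, was at 194 and 32.3 CPM in PEP-WT and at 140 and 13.6 in PEP-619WW. Its log2 ratios of 2.59 (2.37 to 2.81) and 3.36 (2.80 to 3.89) were the highest among the 67 measured list genes in each library. With under 50 CPM in the Ifit-low barcodes of both libraries, Rsad2 passed the filter only through the members. Slfn5, a member of the Schlafen family, was at 586 and 160 in PEP-WT and at 788 and 80.8 in PEP-619WW, with log2 ratios of 1.87 (1.76 to 1.99) and 3.29 (3.06 to 3.51). It was also frequent in single members, since 44.8% of PEP-WT and 34.2% of PEP-619WW members kept a Slfn5 UMI after thinning, against 13.3% and 7.28% of Ifit-low barcodes.

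Other effectors were called as well. Cmpk2, the neighbor of Rsad2 and a nucleotide kinase, had log2 ratios of 1.79 and 2.47. Ifi44 had 1.54 and 2.86. Ifitm3, which blocks the fusion of enveloped viruses, was at 573 and 158 in PEP-WT and at 318 and 121 in PEP-619WW. Isg20, an exonuclease of RNA, had log2 ratios of 1.60 and 2.16. Xaf1, Rtp4, Phf11b, Parp14, Lgals3bp, Trafd1 and Nt5c3 were called with log2 ratios of 1.08 to 1.504 in PEP-WT and 1.23 to 1.97 in PEP-619WW. Among genes not called, Ly6e was at 1437 and 1483 CPM in PEP-WT and at 1832 and 1546 in PEP-619WW. Ly6a was at 1302 and 1170 in PEP-WT and at 1235 and 852 in PEP-619WW, where it went from 828 at an Ifit sum of 0 to 1448 at 10 to 18. Bst2, the tether that holds virions at the membrane, had log2 ratios of 1.00 (0.88 to 1.11) and 0.92 (0.60 to 1.22) and lay at the edge of the call.

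The interferon-induced GTPases, which attack the vacuoles of intracellular pathogens, had log2 ratios above 0 in 10 of 10 measured genes of both libraries. Of all 2366 genes, 1185 in PEP-WT and 1117 in PEP-619WW were above 0. None of the 10 was called, too few genes to read against the 1.44% of all genes called. Iigp1 was at 293 and 170 CPM in PEP-WT and at 419 and 178 in PEP-619WW, and Gbp7 at 288 and 179 and at 441 and 183. Many of these genes respond to interferon gamma too. The interferon gamma targets outside that list had medians of 0.50 and 0.62. Of these, 0 of 3 measured genes were called, too few to read against the 1.44% of all genes called. Cd274, which encodes PD-L1, was at 74.2 and 49.8 CPM in PEP-WT and at 108 and 55.6 in PEP-619WW, and Gbp5 at 86.0 and 60.9 and at 88.9 and 57.8. Ciita, the master regulator of MHC class II, was at 159 and 218 in PEP-WT and at 149 and 185 in PEP-619WW. The Ifi200 family of DNA-binding proteins had 1 of 6 called, against 1.44% of all genes. This was Ifi208, with log2 ratios of 1.08 and 2.03.

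Antigen presentation genes, many of which interferon can induce, included no called gene. None of 16 measured genes of MHC class I and the immunoproteasome was called, with median log2 ratios of 0.12 in PEP-WT and 0.25 in PEP-619WW, against 1.44% of all genes called. Their ratios were above 0 for 12 of 16 genes in PEP-WT and 16 of 16 in PEP-619WW, and their summed log2 ratios were 0.04 (0.02 to 0.06) and 0.20 (0.15 to 0.24). H2-K1, a classical class I heavy chain, was at 2867 and 2989 CPM in PEP-WT and at 3249 and 2940 in PEP-619WW. None of 9 genes of MHC class II was called, with medians of −0.25 and −0.11. Their ratios were below 0 for all but 1 gene in PEP-WT and all but 2 in PEP-619WW, with summed log2 ratios of −0.26 (−0.28 to −0.24) and −0.05 (−0.09 to −0.01). Without barcodes of other types these sums were −0.04 and −0.09. With 16 and 9 genes, both lists were too short to read a lack of calls against the 1.44% of all genes called.

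The 6 called genes outside every list were Tor3a, Ms4a4b, S100a6, Ddx60, Setdb2 and Ms4a6b. Tor3a, a torsin ATPase of the endoplasmic reticulum that interferon induces, was at 201 and 87.1 CPM in PEP-WT and at 264 and 57.1 in PEP-619WW, with log2 ratios of 1.21 and 2.21. Ddx60, a helicase linked to RIG-I signaling, had ratios of 1.15 and 1.58, and Setdb2, a histone methyltransferase, of 1.05 and 1.77. Ms4a4b, a membrane protein best known in T cells, was at 261 and 74.2 in PEP-WT and at 162 and 70.4 in PEP-619WW. S100a6, a calcium-binding protein, had ratios of 1.38 and 1.16, and Ms4a6b of 1.01 and 1.18. When barcodes were thinned to 1000 UMIs before the gate, S100a6 turned to −0.087 and −2.54, Ms4a4b was at 0.15 and 0.0056, and Ms4a6b was at 0.065 in PEP-619WW, so that none of these 3 was called. Below the call, the genes next in rank were Ifi214, Mpeg1, March5, Nampt, Zup1, N4bp1, Usp25, Rnf213 and Svbp, with ratios in PEP-WT of 0.66 for Svbp to 0.98 for Ifi214. Rnf213, an E3 ligase with antiviral activity, had 0.69 in PEP-WT and 1.71 in PEP-619WW.

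The 1 gene called lower was Jchain, which joins the chains of secreted antibody and marks antibody-secreting cells. It was at 45.1 CPM in interferon-high and 141 in Ifit-low PEP-WT barcodes, a log2 ratio of −1.64 (−2.02 to −1.29). In PEP-619WW it was at 92.1 and 258, a ratio of −1.49 (−2.07 to −0.96). With a stricter B cell gate, which asked for 2 Cd79a UMIs and for further B cell genes, 0 genes were called lower. Of the antibody genes, Ighg2c, the main class switched to under type 1 responses in these mice, was at 268 and 523 in PEP-WT and at 486 and 1456 in PEP-619WW. Ighg3 was at 33.3 and 175 in PEP-WT and at 41.3 and 64.3 in PEP-619WW. Igkc, the kappa light chain, had ratios of −0.60 and −0.37, and Ighm, the IgM heavy chain, of −0.44 and −0.06. None of the 8 measured constant region genes was called lower in both libraries. Next to Jchain in rank, with smaller differences, were Zmym5, Apoe, Herpud1, Mtss1, Dusp2, Id3, Vps29, Dgkd, Stag1 and Gpr174. Apoe, a lipid carrier abundant in macrophages, was at 313 and 542 in PEP-WT and at 553 and 865 in PEP-619WW.

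The members carried the genes of mature B cells. Cd79b, the partner of the gate gene Cd79a, had at least 1 UMI in 93.1% of PEP-WT and 98.7% of PEP-619WW members, and 96.4% and 97.5% held Ighm or Ighd. None of 13 B cell markers was called, and their median log2 ratio was −0.33 in PEP-WT and −0.03 in PEP-619WW. Ms4a1, which encodes CD20, was at 845 and 967 CPM in PEP-WT and at 1165 and 778 in PEP-619WW. Follicular, marginal zone, transitional and T-bet-positive B cell lists had 0 called genes of 6, 2, 2 and 1 measured, numbers too small to read against the 1.44% of all genes called. Zeb2, a transcription factor of the T-bet-positive list and its 1 measured gene, was at 120 and 75.8 in PEP-WT and at 159 and 85.7 in PEP-619WW, log2 ratios of 0.66 (0.42 to 0.90) and 0.89 (0.44 to 1.31). No gene of the germinal center list reached the filter. Cd69, an early activation marker that interferon can raise on lymphocytes, was at 286 and 227 in PEP-WT and at 238 and 179 in PEP-619WW, and 0 of 5 activation genes were called. None of 6 survival genes and none of 11 B cell receptor signaling genes was called either. These lists, and those of the B cell markers and activation genes, were too short to read against the 1.44% of all genes called.

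In PEP-WT, barcodes with a marker of another cell type were more frequent among the members than among Ifit-low barcodes. Of the PEP-WT members, 71 of 360 (19.7%, 15.7 to 24.2) held a marker of another type, against 13.1% of Ifit-low PEP-WT barcodes. These shares were not thinned, and the members were the deeper barcodes. In PEP-619WW the shares were 12 of 79 (15.2%, 8.10 to 25.03) and 19.0%. The markers were a UMI of Trac, Nkg7, Csf1r, C1qa, Siglech or Pf4, at least 3 of S100a8 and S100a9, or at least 5 of hemoglobin. The neutrophil condition was met by 5.00% of members and 0.850% of Ifit-low barcodes in PEP-WT, and by 2.53% and 7.74% in PEP-619WW. Trac, a T cell receptor chain, was in 6.39% and 2.27% in PEP-WT and in 3.797% and 3.19% in PEP-619WW. The hemoglobin condition was met by 5.56% and 5.00% in PEP-WT, and by 1.27% and 1.68% in PEP-619WW. Siglech, the defining marker of plasmacytoid dendritic cells, the specialist producers of interferon, was in 0 of 360 and 0 of 79 members. By the limit of 3 counts, those counts of 0 allow shares of up to 0.833% and 3.797% of barcodes with a Siglech UMI, which does not limit the share of cells that express it.

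Summed over the 6 T cell markers, the level was 379 CPM in members and 126 in Ifit-low barcodes of PEP-WT, and 175 and 124 in PEP-619WW. The 5 neutrophil markers summed to 1405 and 132 CPM in PEP-WT and to 273 and 469 in PEP-619WW, and the 6 erythroid markers to 7602 and 8744 and to 92.1 and 1620. Of 5 plasmacytoid dendritic cell markers, 4 were at 0 in the members of each library. The sums for neutrophils and erythroid cells thus stood far apart between the libraries.

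Some of these transcripts lay in few barcodes. In the PEP-WT members, 5 barcodes held 63.0% of the neutrophil marker UMIs, 79.0% of the hemoglobin UMIs, 56.9% of the proliferation UMIs and 39.7% of the T cell marker UMIs, and 6.58% of the interferon-stimulated list UMIs. In PEP-619WW, 5 barcodes held 37.2% of 86 neutrophil marker UMIs, 74.1% of 27 hemoglobin UMIs, 90.9% of 55 T cell marker UMIs and 13.8% of the list UMIs. The deepest PEP-WT member held 39141 UMIs, and the deepest PEP-619WW member 9262. In PEP-WT alone, the neutrophil genes Retnlg, S100a9 and S100a8 stood among the highest log2 ratios of all measured genes, at 4.12, 3.41 and 3.10. In PEP-619WW they were at 0.08, −0.64 and −1.59. Scrublet, a tool that scores barcodes by their likeness to simulated doublets, called 2 PEP-WT barcodes (0.0135%) and 0 PEP-619WW ones, so its calls could not be used. Among the highest 5% of its scores were 20 PEP-WT members (5.56%) against 2.55% of Ifit-low barcodes, and 6 PEP-619WW members (7.59%) against 3.23%. The part of doublets in these levels was not tested.

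**Figure D4:**
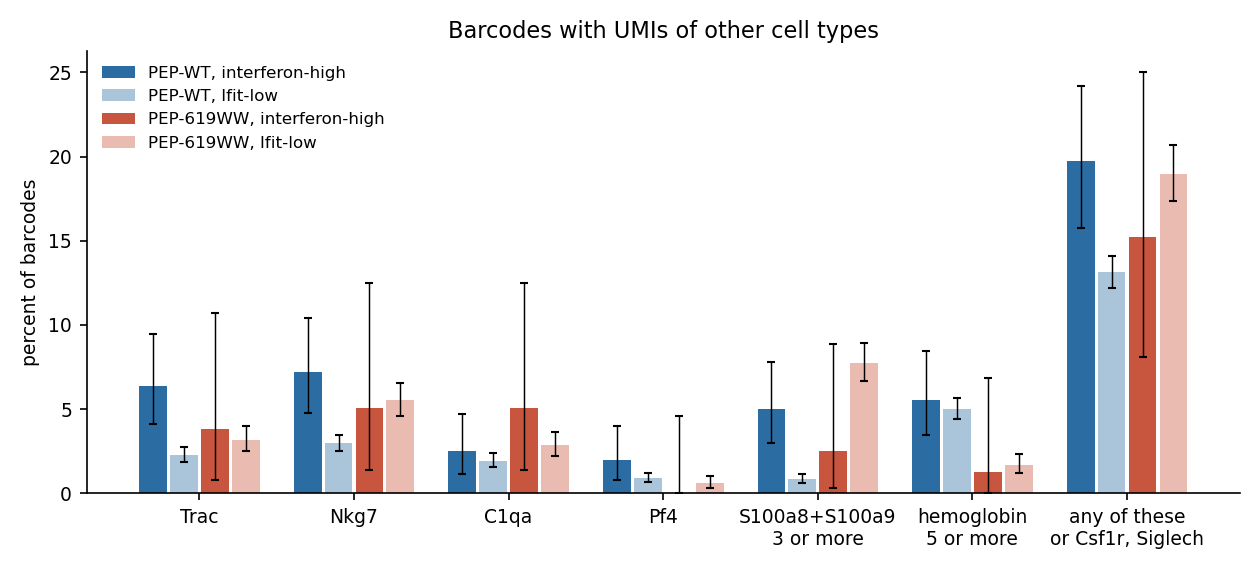
Percent of interferon-high and Ifit-low barcodes of each library that held UMIs of other cell types, one bar per library and set, with 95% exact binomial intervals. The neutrophil bar of interferon-high PEP-WT barcodes stands at 5.00% against 0.850% of Ifit-low ones, and in PEP-619WW the order is 2.53% and 7.74%.

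Without the barcodes that carried markers of other types, the interferon program of the members was as large. Then 39 of 2332 genes (1.67%) were called higher, 31 of them shared with the 34 above, and 29 were of the interferon-stimulated list. The list's median log2 ratio was 0.94 in PEP-WT and 1.40 in PEP-619WW, and the median per barcode was 262.0 and 250.9 UMIs per 10000. Bst2, Daxx, Ddx58, Ifi206, Parp9 and Trim30a were the list genes that entered, and Jchain remained the 1 gene called lower, at −1.75 and −1.06. Ms4a4b remained called at ratios of 1.11 and 1.08, while S100a6 at 0.83 in PEP-WT, Ms4a6b at 0.57 and Ddx60 at 0.995 were no longer called. B cell markers then had medians of −0.06 and −0.05.

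Between genotypes, the members had the interferon program at close levels. The median log2 ratio of PEP-619WW over PEP-WT over 71 measured list genes was 0.12 in interferon-high barcodes, where the median of all 2633 measured genes was 0.06. A gene was measured here if its mean level in the members of both libraries was at least 50 CPM. In Ifit-low barcodes the list's median was −0.44, and 60 of the 71 genes were below 0 there, against 28 in the members. Of all 2633 genes, 1241 were below 0 in Ifit-low barcodes and 1200 in the members. With barcodes of other types removed, the list's medians were 0.08 in the members and −0.45 in Ifit-low barcodes. The list's median in the members turned to −0.11 when barcodes were thinned to 1000 UMIs before the gate, and to −0.043 when the Ifit UMIs also had to reach 500 CPM of the barcode. PEP-WT and PEP-619WW thus differed in the program among the Ifit-low barcodes and little among the members, which were all chosen by the same Ifit threshold.

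Of the 71 measured list genes, none was at least 2-fold, against 2.54% of all genes. At most 0.5-fold, with an interval that left out 1, was 1 gene, against 4.52% of all genes. That gene was Isg15, at 741 CPM in PEP-WT and 343 in PEP-619WW members, a log2 ratio of −1.11 (−1.41 to −0.82). It was −1.74 in the Ifit-low barcodes, and −0.53 (−0.88 to −0.20) in the members without barcodes of other types, which is no longer 2-fold. Slfn5 was at 586 and 788, a ratio of 0.43 (0.22 to 0.63), and Gbp7 at 288 and 441, a ratio of 0.62 (0.33 to 0.90). Oas3 at 133 and 133 and Usp18 at 130 and 130 differed by 0.00. Gbp2 was at 187 and 305, a ratio of 0.70 (0.35 to 1.04), and was called without barcodes of other types at 1.27 (0.86 to 1.67).

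Over all genes, 67 of 2633 (2.54%) were at least 2-fold higher in PEP-619WW members and 119 (4.52%) at least 2-fold higher in PEP-WT members, each with a counting interval that left out 1. Of these, 37 and 69 lay under 50 CPM in the library where they were lower, and so passed the filter through the other library and had to differ. With barcodes of other types removed, 66 of 2522 (2.62%) were higher in PEP-619WW, 46 of them shared, and 34 (1.35%) in PEP-WT, 21 of them shared. All 4 measured erythroid, 3 neutrophil and 3 proliferation genes were among the 119. Hbb-bs, a beta globin, was at 4209 and 41.3 CPM in PEP-WT and PEP-619WW members. S100a8, a neutrophil alarmin, was at 414 and 60.3. Without barcodes of other types, the summed neutrophil markers turned from a log2 ratio of −2.36 to 0.83 (0.31 to 1.33), and S100a9, the partner of S100a8, was called toward PEP-619WW at 1.38 (0.65 to 2.11). Since the removal itself takes out barcodes with S100a8, S100a9 and hemoglobin UMIs, lower values of these genes in PEP-WT follow from it. Mki67, a marker of cycling cells, was at 112 and 9.53, and the ratio of −3.56 (−5.85 to −1.99) became −0.12 (−2.58 to 1.77) without barcodes of other types.

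The genes furthest toward PEP-WT by the rule for named genes included genes that stood in none of the lists. C1qtnf12, a secreted relative of C1q, was at 112 and 3.18 CPM, the latter from 1 UMI. Its PEP-WT ratio of members over Ifit-low barcodes went from 2.42 to −2.20 without barcodes of other types. Car1 and Car2, both carbonic anhydrases, Cpox, an enzyme of heme synthesis, Prdx2, a peroxiredoxin, Hist1h1b, a linker histone, Ube2c, a ubiquitin-conjugating enzyme, Cks2, a partner of cyclin-dependent kinases, Dut, a dUTPase, Il1b, a cytokine, and Ybx3 were also among them. Car2 was at 361 and 25.4, and its log2 ratio went from −3.83 (−5.05 to −2.84) to 0.71 without barcodes of other types. Ybx3 went from −4.004 to −2.07 (−5.18 to −0.095) and fell under the filter. Car1 and Ube2c held 0 UMIs in PEP-619WW members and 182 and 146 in PEP-WT, where 3 UMIs of PEP-619WW give a log2 ratio of −3.73 or below and −3.41 or below. Without barcodes of other types, Ube2c was at −0.44, Cpox went from −2.66 to −0.29 and Dut from −2.27 to −0.33. Cks2 went from −2.38 to −0.70, Prdx2 from −2.28 to −0.76 and Hist1h1b from −4.38 to −1.05. C1qtnf12, Car1 and Il1b then gave no ratio, and none of the genes named here was called toward PEP-WT.

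The genes furthest toward PEP-619WW were of mixed function. Fli1, an ETS transcription factor of blood cells, was at 86.0 in PEP-WT and 241 CPM in PEP-619WW members, a log2 ratio of 1.49 (1.06 to 1.91), and 1.37 without barcodes of other types. It was 0.48 in the Ifit-low barcodes. Rasgrp1, an exchange factor for Ras, was at 30.5 and 92.1, a ratio of 1.59 (0.86 to 2.30), against 0.13 in Ifit-low barcodes. Cd200, an inhibitory ligand, was at 34.0 and 102, a ratio of 1.58 (0.89 to 2.25), against 1.05 in Ifit-low barcodes. Abca1, a cholesterol exporter, was at 47.2 and 143, a ratio of 1.60 (1.02 to 2.16), against 1.03. Crk had the highest ratio, 1.61, and Fam214a, Kdm7a, Scpep1, Prex1, Baz2a, Ahnak and Tsix had ratios of 1.42 to 1.52. Prex1 and Baz2a turned to −1.14 and −0.17 when barcodes were thinned to 1000 UMIs before the gate. Cd200 and Fam214a gave a ratio in 12 alternatives and Ahnak in 10. Over these, the lowest ratio stayed above 2-fold for each. It fell below 2-fold for the others named here, to 0.50 for Crk, 0.67 for Rasgrp1, 0.86 for Fli1 and 0.22 for Tsix. The 12 genes rested on 24 to 76 UMIs each in PEP-619WW. All 12 except Prex1, which fell under the filter at a ratio of 1.62, were also called without barcodes of other types. That setting kept 67 of the 79 PEP-619WW members, so it is no separate support for these genes. All but Fli1 and Baz2a lay under 50 CPM in PEP-WT members and so passed the filter through PEP-619WW.

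Ptpn22, the gene that carries the variant, was itself among the 67, though not 2-fold under every alternative (log2 ratios of 0.53 to 1.31). It was at 66.6 CPM (96 UMIs) in PEP-WT and 137 (43 UMIs) in PEP-619WW members, a log2 ratio of 1.04 (0.48 to 1.57), and 0.78 in Ifit-low barcodes. The knock-in changes a codon and leaves the 3' end that the assay reads, so this level does not check the genotype. Ptpn6, which encodes the phosphatase SHP-1, was at 255 and 149, a ratio of −0.77 (−1.24 to −0.33). Without barcodes of other types Ptpn6 was called, at −1.17 (−1.72 to −0.66), as were the B cell surface genes Cd72 at −1.01 and Fcer2a at −1.74. Cr2, the complement receptor CD21 that is abundant on marginal zone B cells, was at 187 and 73.0, a ratio of −1.36 (−2.04 to −0.74), and of −1.60 in Ifit-low barcodes. Its difference was therefore also present outside the members. The marginal zone list had 3 genes measured between genotypes, all below 0, with a median of −0.94 in the members and −0.55 in Ifit-low barcodes. Its other measured genes were Marcks, at 91.5 and 47.6 with a ratio of −0.94 (−1.82 to −0.17), and Dtx1, at 77.0 and 54.0 with a ratio of −0.51 (−1.34 to 0.23). Without barcodes of other types, Cr2 and Marcks were called, at −1.72 (−2.48 to −1.04) and −1.91 (−3.39 to −0.72), and the list's median was −1.72. Jchain was at 45.1 and 92.1, a ratio of 1.03 (0.35 to 1.68), and Ighm at 2171 and 3471, a ratio of 0.68 (0.58 to 0.78). Immunoglobulin variable genes did not reach the filter in any comparison.

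**Figure D5:**
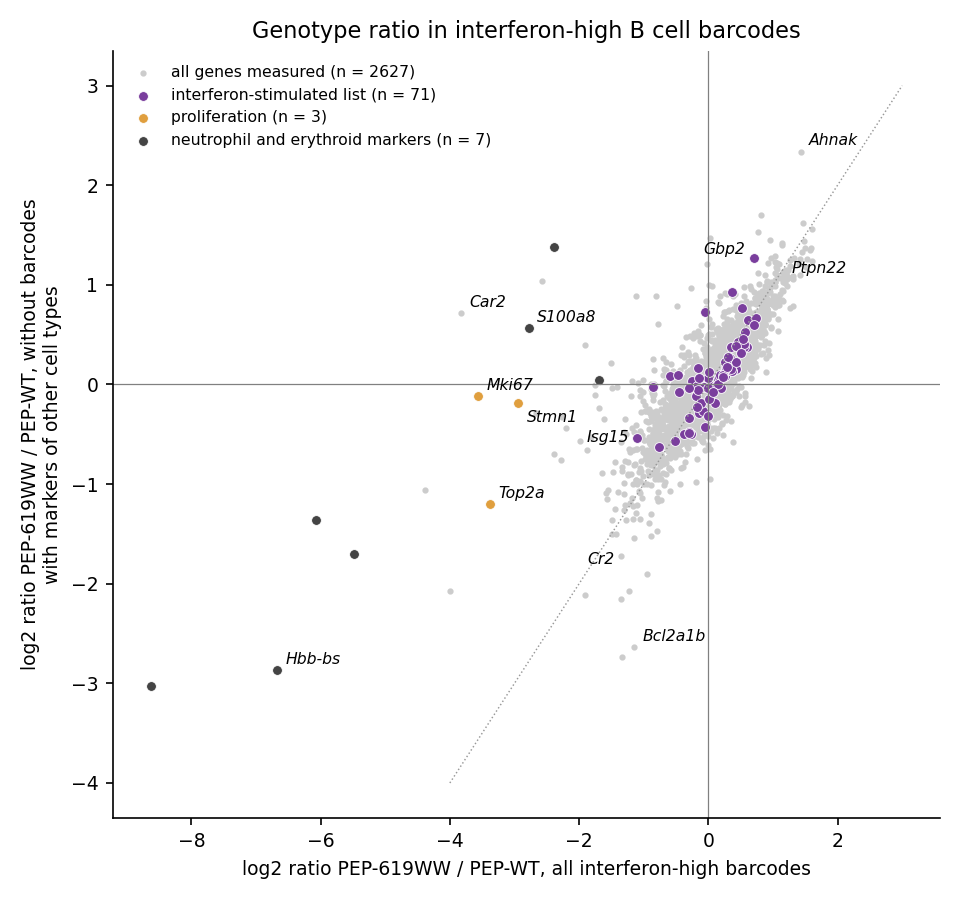
Log2 ratio of PEP-619WW over PEP-WT in interferon-high barcodes for each of 2627 genes, with all barcodes on the x axis and without barcodes carrying markers of other cell types on the y axis. Erythroid, neutrophil and proliferation genes lie far to the left on the x axis, and Mki67 goes from −3.56 to −0.12, while the interferon-stimulated list has medians of 0.12 and 0.08. The dotted line marks equal values.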

How the data were processed

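Single cell 3' libraries of sorted splenocytes, 1 per genotype, were analysed as the raw UMI counts that the authors deposited, as filtered matrices. The labels list Cell Ranger 6.0.0 and mm10, and the methods name another Cell Ranger version. Of 32285 genes, 32158 had a symbol.

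Members and gene lists were chosen with earlier results of these data known. Counts were summed over the barcodes of a set and given as counts scaled to a sum of 1000000 (CPM). Genes needed a mean of 50 CPM in both sets. A gene was called between interferon-high and Ifit-low barcodes if it was 2-fold apart the same way in both libraries, and between genotypes if it was 2-fold apart with a 95% interval that left out 1. With 1 library per genotype there is no test. Intervals are exact Poisson (sums), Clopper-Pearson (shares) and Newcombe (their difference). Beside the lists, the genes named were those with the 15 highest and 10 lowest ratios, by the library nearer to 0, and 12 per genotype, with at least 20 UMIs. Some genes are not reported here. A count of 0 was set to 3 counts for a bound.

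For shares of barcodes with a UMI, each barcode was thinned to 1000 UMIs and shallower ones were left out, 1 and 0 members and 183 and 178 Ifit-low barcodes of PEP-WT and PEP-619WW. A second pair of matrices, whose relation to the first the labels do not give, held few B cells and was used for the share only, although its barcode numbers are the ones that the methods state. Promoters were RefSeq windows on GRCm38.p6. Scripts were tested on simulated data and used scanpy 1.11.5 (for Scrublet), matplotlib 3.10.9, pandas 2.3.3, scipy 1.17.1 and numpy 2.4.6 under Python 3.11.15. Alternatives covered the Ifit threshold, thinning before the gate, the filter, the total counted and the removal of barcodes of other types.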

Additional observations from a re-analysis of the deposited data

Results flagged for a closer look

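The proliferation list moved in opposite directions in the libraries. Its summed log2 ratio of interferon-high over Ifit-low barcodes was 0.95 in PEP-WT and −2.57 in PEP-619WW. In PEP-WT, 857 UMIs of the list lay in 70 of 360 members and 5 barcodes held 56.9% of them, and in PEP-619WW 16 UMIs lay in 13 of 79 members. Without barcodes that carried markers of other types, the ratio was −1.27 in PEP-WT and −1.67 in PEP-619WW.

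Neutrophil markers did so too, with a summed log2 ratio of 3.41 in PEP-WT and −0.78 in PEP-619WW. In PEP-WT, 1 barcode held 25.02% of the 2026 UMIs. Without barcodes of other types the ratios were 0.12 and −0.23, where the removal itself used S100a8 and S100a9 of this list. With 1 library per genotype, neither difference between the libraries was tested.

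The second pair of matrices, which no gene comparison used, held 4 interferon-high barcodes among 519 gated B cells in PEP-619WW and 0 among 2 in PEP-WT.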

How the results depend on the processing

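Of the shares, counts and list medians recomputed, 79 stayed within their limits, 44 moved and 3 reversed, and among values of single named genes 1493 stayed, 258 moved and 13 reversed. The values below are, in order, the difference of the share (PEP-619WW minus PEP-WT, points), genes called higher and lower in members, list genes called, list medians (PEP-WT and PEP-619WW) and genes higher in PEP-619WW and PEP-WT, where they moved. An Ifit sum of at least 2 gave −5.05, 18 higher, 12 list genes, 0.68 and 0.99, and 25 and 46. At least 5 gave −1.06, 54 higher, 7 lower, 1.02 in PEP-WT and 106 in PEP-619WW. Thinning to 1000 UMIs before the gate gave −0.951, 100 higher, 46 lower, 48 list genes, 1.39 and 1.79, 60 in PEP-WT, and a list median between genotypes of −0.11, which reversed. Thinning the Ifit sum alone, chosen after seeing the data, gave −0.786, 90 higher, 12 lower, 48 list genes, and 1.31 and 1.75. A sum of 3 that was also 500 CPM gave 2 lower, 40 and 41, and a reversed median of −0.043. Comparing with Ifit sums of 0 gave 2 lower, and weighting by depth 3. A stricter B cell gate gave 0 lower and 57 in PEP-WT. Removing other types gave 34 in PEP-WT, and this with the stricter gate, chosen after seeing the data, 0 lower and 37. A total without immunoglobulin, hemoglobin, ribosomal and mitochondrial genes gave 136 and 195. A filter of 20 CPM gave 2 lower and 191 and 285, and one of 100 gave 18 higher, 0 lower, and 21 and 45. In the second pair of matrices the difference of the share was 0.771 (0 of 2 against 4 of 519), counted among the 3 reversed. With 2 PEP-WT barcodes, whose share had an interval of 0 to 84.2%, its sign could not be told. Reversed ratios of high over low were those of S100a6, −0.087 in PEP-WT and −2.54 in PEP-619WW with thinning before the gate, and −2.40 in PEP-619WW with the Ifit sum thinned. Reversed ratios between genotypes, with these same thinnings, were −1.14 and −1.33 for Prex1, −0.17 and −0.10 for Baz2a, 0.029 and 0.67 for Car2, and 0.22 with the first for Hist1h1b. Car2 was also at 0.25 with 500 CPM, 0.71 without other types, and 0.69 without other types under the stricter gate. The thinned gates held fewer barcodes; for the other moves the cause was not tested. No paired analysis was possible because each genotype had 1 library.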
